A study of Arabidopsis thaliana with 4 samples.

Results

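Brassinosteroids are steroid hormones that promote cell elongation in plants. The receptor kinase BRI1 and its co-receptor BAK1 perceive the hormone at the cell surface. The signal passes through phosphatases of the BSU1 kind, inactivates the kinase BIN2 and so releases the transcription factors BZR1 and BES1, which set the expression of growth genes. Seedlings grown in darkness depend on this pathway for their elongated form, and light turns them to de-etiolation. Phytochrome A (phyA) is the photoreceptor for far-red light and is found in the nucleus after irradiation.

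The 10 genes described here encode this chain from receptor to early response factors: BRI1 (AT4G39400), BAK1 (AT4G33430), BKI1 (AT5G42750), BSU1 (AT1G03445), BIN2 (AT4G18710), BZR1 (AT1G75080), BES1 (AT1G19350), BEE1 (AT1G18400), BEE2 (AT4G36540) and BEE3 (AT1G73830). They were chosen by locus, with earlier results of these data known, from 27444 nuclear protein-coding genes of Arabidopsis thaliana. A peak was assigned to a gene when it overlapped the gene body or the 1000 bp outside either end by at least 1 bp, and this interval is called the window. The data are 3 lists of peaks from chromatin immunoprecipitation sequencing (ChIP-seq) of phyA-GFP, which the series describes as biologically distinct samples. All samples, the 1 input included, came from etiolated phyA-GFP phyA201 seedlings aged 4 days that had been given 3 h of far-red light. In these phyA201 mutant plants the PHYA promoter drives the fusion, and the antibody was raised against GFP. The input, dark-grown seedlings and plants without the fusion were not analysed here, so the values describe 1 condition and no comparison between conditions was possible. Because strand was not known for the genes, their ends are named by position, lower or higher on the chromosome, and promoters and downstream sequence are not told apart.

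The lists held 7084, 7534 and 6037 peaks with 11110782, 7702516 and 4951883 reads in peaks in replicates 1, 2 and 3. Sequencing depth is unknown beyond these reads. Fold enrichment is the authors' value for each peak, read as signal at the summit over local background, and no list held a value below 2.95. Because the lists were called separately, each value is also given as a percentile of its own list.

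phyA peaks lay at all 10 genes in at least 1 replicate, and 40 peaks were counted in total, 13, 14 and 13 in replicates 1, 2 and 3. A peak of every replicate was present at 8 of the 10 genes, against 18.8% of all protein-coding genes. The 8 genes were BRI1, BAK1, BIN2, BZR1, BES1, BEE1, BEE2 and BEE3. BKI1 had peaks in 2 replicates and BSU1 in 1. With only peaks of fold enrichment 4 or more, 4 of the 10 genes had a peak of every replicate, against 4.90% of all protein-coding genes. By replicate, peaks lay at 8, 10 and 9 of the 10 genes in replicates 1, 2 and 3, against 35.3, 35.7 and 28.1% of all protein-coding genes. No peak of any replicate was found at 51.9% of all protein-coding genes. The median gene length was 2663 bp among the 10 genes and 2078 bp among all protein-coding genes, and BKI1, BEE2 and BEE3 were shorter than the median of all protein-coding genes. The part of window length in these counts was not tested.

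A stricter count asked for a summit, the position of highest signal, of every replicate in the window. It retained 6 of the 10 genes, against 14.3% of all protein-coding genes, and left out BRI1 and BZR1. Summits of the 3 replicates lay within 200 bp of each other at 5 of the 8 genes with a peak of every replicate (BAK1, BIN2, BZR1, BES1 and BEE3). The share among all 5160 genes with a peak of every replicate was 59.0%, close to that of the 8 genes, so agreement in position did not set them apart. BES1, with a span of 128 bp, was nearest to the limit from within, and BEE2, at 219 bp, was just outside it. The median span was 122 bp for the 8 genes and 149 bp for the 5160. The peaks of the 3 replicates shared at least 1 bp of the window at all 8 genes, against 92.4% of the 5160.

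**Figure D1:**
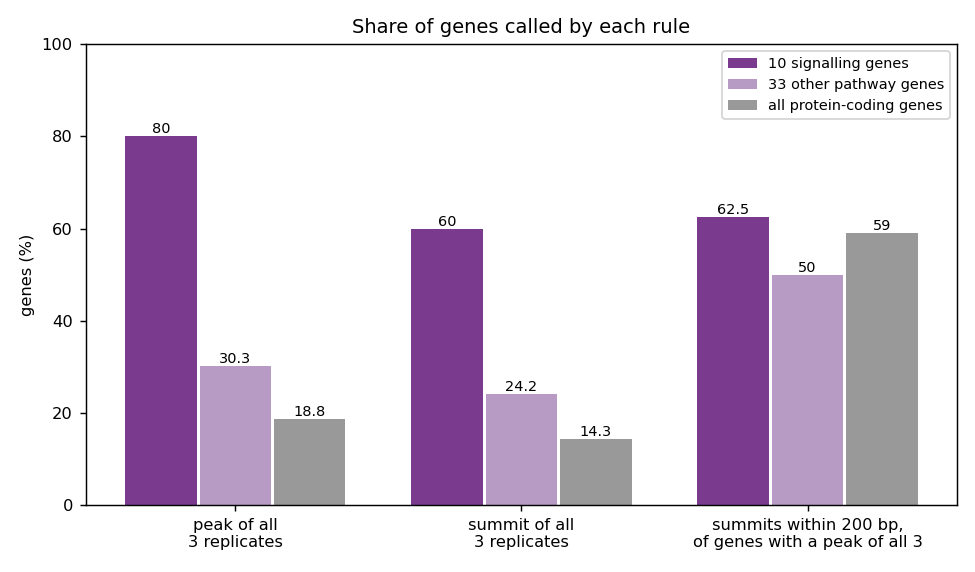
Bars give the percentage of genes (vertical axis) that met each of 3 rules among the 10 signalling genes, 33 other genes of the brassinosteroid pathway and all 27444 protein-coding genes, which include both lists. The first and second rules gave 80 and 60% of the 10 signalling genes and 18.8 and 14.3% of all genes. The last rule is counted over genes with a peak of every replicate and gave 62.5% of 8 signalling genes and 59.0% of 5160 genes.

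Of the 40 summits, 14 (35%) lay inside the gene they were assigned to, 18 (45%) in a flank and 8 (20%) beyond the window. Over all 32579 pairs of a protein-coding gene and a peak, these shares were 23.3, 55.7 and 21.0%. A summit lay within 500 bp of a gene end in 25 of the 40 peaks (62.5%), against 57.7% of all pairs. The nearest protein-coding gene to the summit was the signalling gene itself for 33 of the 40 peaks (82.5%). This share was not counted over all pairs, so it has no comparison here.

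**Figure D2:**
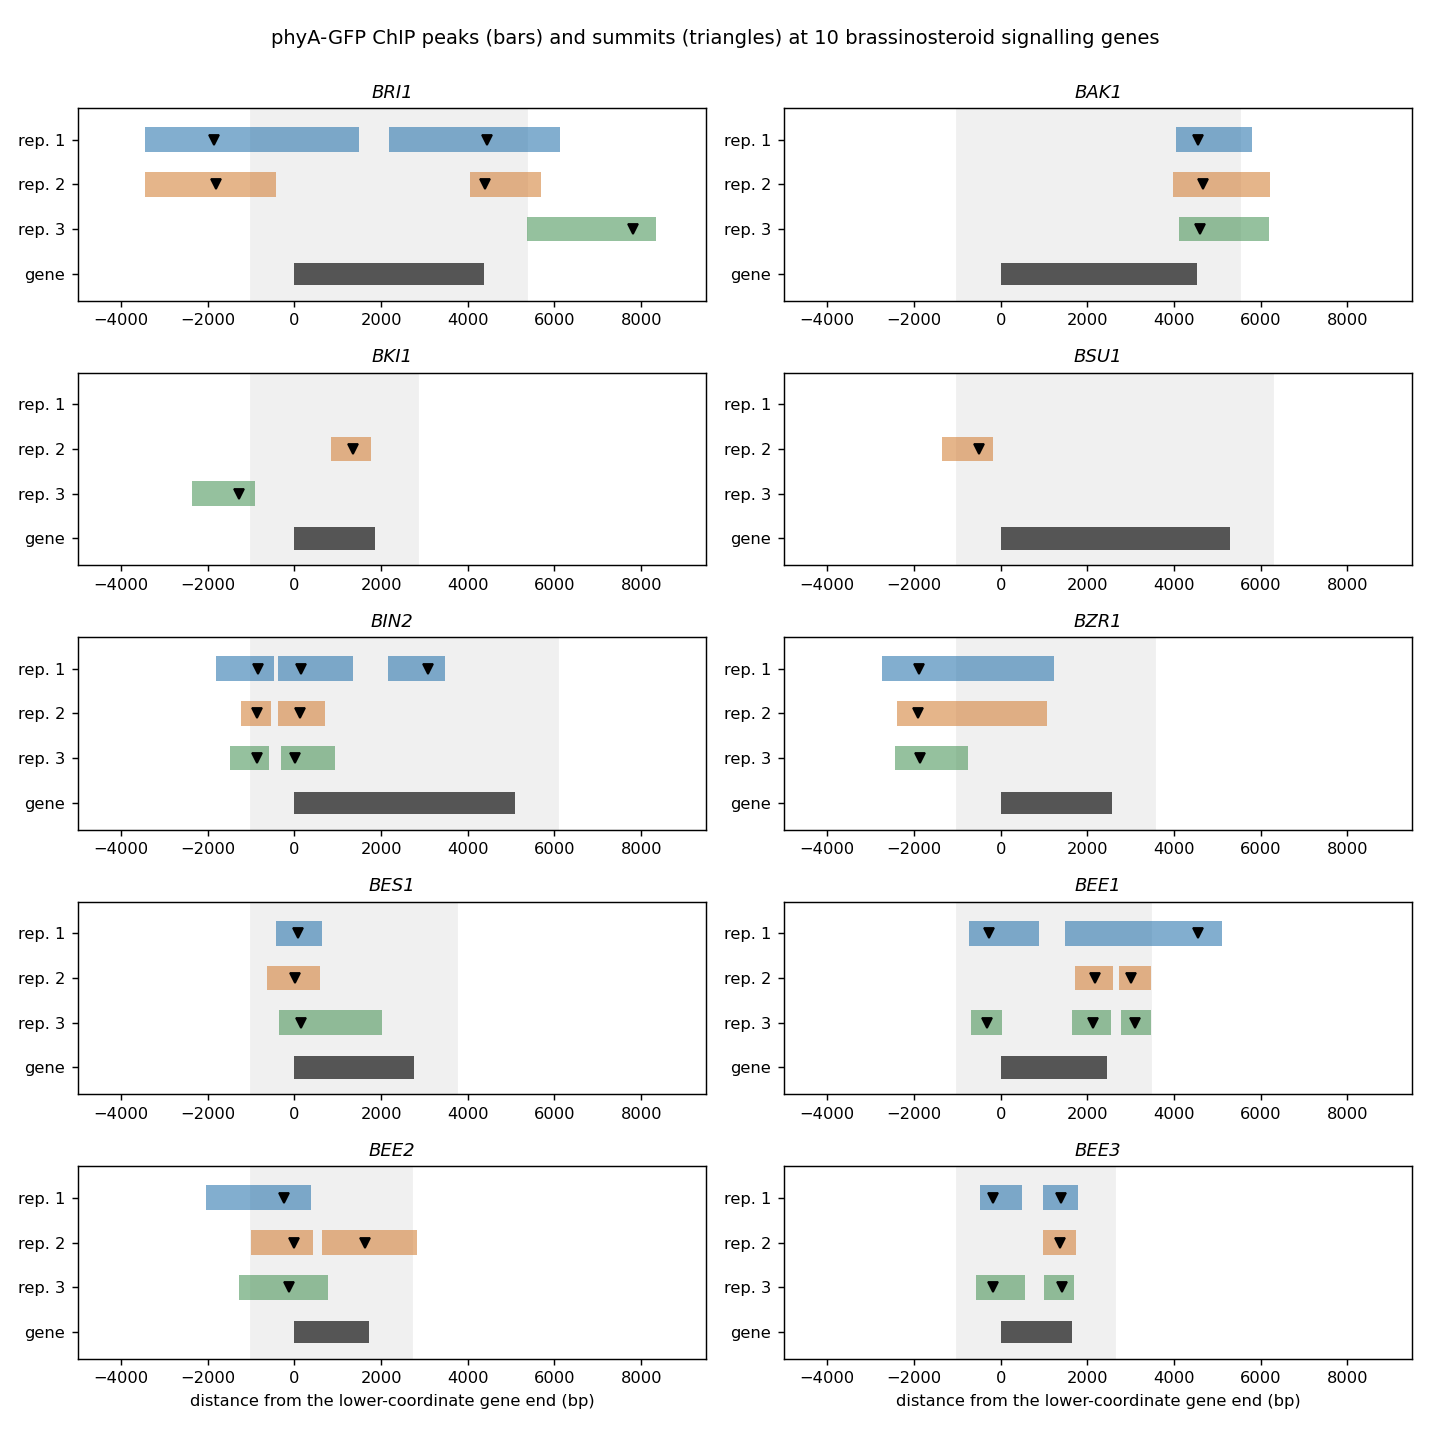
Each panel shows 1 gene (dark bar) with its window (grey), and the peaks (coloured bars) and summits (triangles) of replicates 1 to 3 above it, by distance in bp from the gene end that is lower on the chromosome. Summits of all 3 replicates line up at BAK1, BIN2, BZR1, BES1 and one end of BEE3. At BRI1 and BEE1 summits line up between 2 replicates at most.

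Of the receptor genes, BAK1 had peaks that coincided in the 3 replicates and BRI1 did not. At BAK1, which joins BRI1 in the active receptor complex, each replicate had 1 peak at the higher end of the gene. The summits were at chr4:16090862 in replicate 1, chr4:16090978 in replicate 2 and chr4:16090910 in replicate 3 (TAIR10). They lay 30, 146 and 78 bp outside the gene. The peaks were 1739, 2226 and 2081 bp long and held 2221, 1924 and 1691 reads. Fold enrichment was 6.32, 5.02 and 4.57, at the 93.8th, 87.8th and 89.0th percentiles of the lists (mean fold enrichment 5.30 ± 0.91, SD, n = 3). All 3 replicates thus placed the BAK1 peak in the upper part of the list, and the 3 peaks shared 1418 bp of the window. They also reached into the neighbouring gene AT4G33440, which held none of the summits.

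At BRI1, the hormone receptor, replicates 1 and 2 each had 2 peaks and replicate 3 had 1. Near the higher gene end, the peaks of replicates 1 and 2 had summits 70 and 23 bp outside the gene, with 3543 and 1150 reads and fold enrichments of 4.74 and 4.04. The larger peaks of the same replicates had summits 1854 and 1799 bp outside the lower end, beyond the window, with 4756 and 2629 reads and fold enrichments of 8.17 and 5.03. The value of 8.17 was at the 99.5th percentile of replicate 1. Replicates 1 and 2 therefore named the same pair of positions, with summits 47 bp apart at the higher end and 55 bp apart at the lower. The only peak of replicate 3 (chr4:18329826-18332803, 1837 reads, fold enrichment 4.01) reached 6 bp into the window, and its summit lay 3448 bp outside the higher end. The protein-coding gene nearest to that summit was WRKY13, a transcription factor gene. BRI1 was thus counted with all replicates through 6 bp of overlap, and the mean of the highest peaks, 5.74 ± 2.17 (SD, n = 3), joins separate positions. With flanks of 500 bp, BRI1 no longer had a peak of every replicate. Nor did it with at least 50% of a peak required in the window, or with the nearest gene only. The peptide gene PLS lies beyond the higher end of BRI1, and the peaks of 2 replicates overlapped it.

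The gene of the receptor inhibitor had peaks in 2 replicates, at separate positions. BKI1, which binds BRI1 and keeps it inactive without hormone, had no peak in replicate 1. Replicate 2 had a peak of 920 bp with 630 reads inside the gene, its summit 500 bp from the higher end. Its fold enrichment of 3.50 was at the 30.9th percentile. Replicate 3 had a peak of 1467 bp with 879 reads whose summit lay 1272 bp outside the lower end, at a fold enrichment of 3.57 and the 49.1st percentile. That peak overlapped the window by 97 bp and its summit was nearest to AT5G42740. The replicates thus shared no position at BKI1.

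The cytosolic steps differed between the phosphatase and the kinase gene. BSU1, a phosphatase that acts on BIN2, had a single peak in replicate 2, of 1183 bp with 750 reads and a fold enrichment of 3.96 (55.6th percentile). Its summit lay 502 bp outside the lower end of BSU1, inside the neighbouring gene AT1G03440. No peak was listed there in replicates 1 and 3, and an absent entry means only that no peak passed the lists' limits.

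BIN2, the kinase that holds BZR1 and BES1 inactive, carried 7 peaks, 3 in replicate 1 and 2 in each of the others. All replicates placed a summit just inside the lower gene end, at chr4:10296295, chr4:10296270 and chr4:10296143, which is 157, 132 and 5 bp within the gene. These peaks held 1653, 1191 and 1075 reads in replicates 1, 2 and 3. Their fold enrichments were 4.99, 4.64 and 6.83, at the 71.9th, 79.8th and 99.8th percentiles (mean 5.49 ± 1.18, SD, n = 3). A separate, smaller peak lay outside the same end in every replicate, with summits 843, 867 and 859 bp from the gene and 925, 400 and 436 reads. Its fold enrichments were 3.48, 3.02 and 3.15, at the 13.5th, 3.56th and 17.6th percentiles. The inner peak exceeded the outer one in each of the 3 replicates, by 1.43, 1.54 and 2.17 times in fold enrichment. The outer summits agreed to 24 bp and the inner ones to 152 bp. A further peak, with its summit 2003 bp inside the higher end, was listed in replicate 1 alone, with 1016 reads and a fold enrichment of 3.92.

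Both transcription factor genes at the end of the chain had 1 peak in each replicate. At BES1 the summits lay 94, 25 and 153 bp inside the lower gene end, at chr1:6688557, chr1:6688488 and chr1:6688616. The peaks held 1023, 820 and 1379 reads and were 1055, 1224 and 2358 bp long. Fold enrichment was 4.33, 3.94 and 3.85, at the 48.2nd, 54.7th and 64.9th percentiles (mean 4.04 ± 0.26, SD, n = 3). Of the 8 genes BES1 had the smallest SD of fold enrichment, and its percentiles were near the middle of each list. The SD of the percentile was smaller at BAK1 and BEE1.

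At BZR1, the close relative of BES1, the summits agreed to 40 bp but lay away from the gene. They were 1893, 1906 and 1866 bp outside its lower end, at chr1:28183611, chr1:28183598 and chr1:28183638, and nearest to AT1G75060. The peaks of replicates 1 and 2 were 3976 and 3463 bp long, with 3527 and 2901 reads, and reached into BZR1. That of replicate 3 was 1669 bp long with 1073 reads and ended in the flank, covering 240 bp of the window. Fold enrichment was 4.72, 4.74 and 3.54, at the 62.8th, 82.1st and 47.1st percentiles (mean 4.33 ± 0.69, SD, n = 3). The tRNA gene AT1G75070 lay under the peaks of all 3 replicates. With flanks of 500 bp, or with each peak given to the nearest gene only, BZR1 was not counted. Nor was it with at least 50% of a peak required in the window.

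The BEE genes encode basic helix-loop-helix (bHLH) factors that act as early brassinosteroid response genes. All 3 genes had peaks of every replicate, with differing arrangements. BEE1 had 7 peaks. Inside its higher end, replicates 2 and 3 had narrow peaks of 864 and 899 bp with summits 281 and 322 bp within the gene. They held 897 and 639 reads, and their fold enrichments of 5.79 and 4.62 were at the 96.1st and 90.0th percentiles. The same replicates had a further summit 557 and 636 bp outside that end, at fold enrichments of 3.75 and 3.61. Replicate 1 instead had 1 peak of 3604 bp with 3266 reads that spanned both positions, with its summit 2101 bp outside the gene and a fold enrichment of 5.40. At the lower end, replicates 1 and 3 had summits 273 and 307 bp outside the gene, with fold enrichments of 4.38 and 3.41. Each of the 3 positions that replicates shared was therefore a summit in 2 of them. The mean of the highest peaks was 5.27 ± 0.60 (SD, n = 3), although the replicate 1 value comes from a summit nearer to AT1G18410.

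At BEE2 the summits lay 233, 14 and 123 bp outside the lower gene end. The peaks were 2438, 1435 and 2052 bp long and held 2049, 1232 and 1285 reads. Fold enrichment was 3.67, 4.41 and 4.00 (mean 4.03 ± 0.37, SD, n = 3). Their percentiles differed more, at 20.8, 73.1 and 71.9 in replicates 1, 2 and 3. Replicate 2 had a second peak with its summit 79 bp inside the higher end, at a fold enrichment of 3.17.

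BEE3 had a peak at each end. Inside the higher end all 3 replicates had summits, 248, 276 and 240 bp within the gene, in short peaks of 795, 761 and 693 bp. These held 620, 537 and 373 reads, with fold enrichments of 3.45, 4.29 and 3.49. At the lower end replicates 1 and 3 had summits 186 and 172 bp outside the gene, with fold enrichments of 5.45 and 3.57, and replicate 2 had no peak. The highest peak was therefore at the lower end in replicates 1 and 3 and at the higher end in replicate 2. The mean of the highest peaks was 4.44 ± 0.95 (SD, n = 3).

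**Figure D3:**
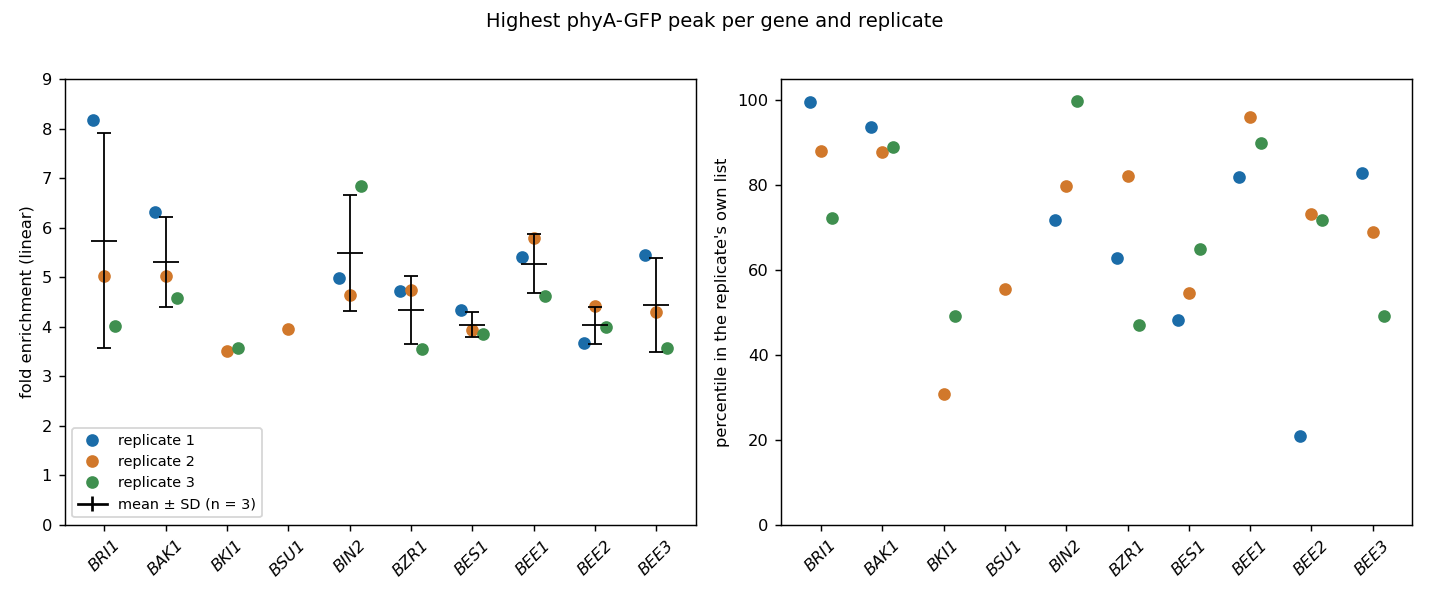
Points give the highest peak of each gene in replicates 1, 2 and 3 as fold enrichment (left axis, linear, with mean ± SD where all 3 replicates had a peak) and as percentile of the replicate's own list (right). BAK1 lies at or above the 87.8th percentile in each replicate, whereas BEE2 extends from the 20.8th to the 73.1st.

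The order of the 8 genes by mean fold enrichment was BRI1, BIN2, BAK1, BEE1, BEE3, BZR1, BES1 and BEE2. No neighbouring pair in this order differed by more than the larger SD of the pair. The widest gap, 0.83 between BEE1 and BEE3, was below the SD of 0.95 at BEE3. These SDs also hold differences between the lists, whose median fold enrichments were 4.38, 3.85 and 3.58 in replicates 1, 2 and 3. They therefore do not measure whether genes differ within a replicate, which was not tested. The median over the 8 genes was 4.85, against 4.34 over the 5160 genes with a peak of every replicate. The median of the mean percentiles was 75.4 against 62.4. Both sides include highest peaks with summits beyond the window, as at BRI1 and BZR1 in every replicate and BEE1 in replicate 1. A comparison limited to summits in the window is not given here. Read density, as reads per kb of the highest peak scaled by the reads in all peaks of its list (RPKM computed on reads in peaks), had a median of 107 for the 8 genes and 104 for the 5160.

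The rest of the pathway was examined through 33 other genes. A peak of every replicate was present at 10 of them (30.3%), against 18.8% of all protein-coding genes. Another 10 had no peak in any replicate, against 51.9% of all protein-coding genes. A summit of every replicate lay in the window of 8 of the 33 genes (24.2%), against 14.3% of all protein-coding genes.

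Of 12 genes of brassinosteroid synthesis and breakdown, 5 (41.7%) had a peak of every replicate, against 18.8% of all protein-coding genes. A summit of every replicate lay in the window of 3 (25.0%), against 14.3% of all protein-coding genes. Summits lay within 200 bp at 2 of the 5 (40.0%), against 59.0% of the 5160 genes. DWF4, a hydroxylase of the synthesis route, had fold enrichments of 6.25, 4.21 and 3.98 in replicates 1, 2 and 3, with summits within 95 bp. BAS1, which inactivates brassinosteroids, had 5.72, 5.69 and 4.08, with summits within 74 bp. The others were ROT3, DWF5 and STE1, with summit spans of 298, 756 and 639 bp. CPD, DWF1 and SOB7 had a peak in 1 replicate, DET2, CYP90D1 and BR6OX2 in 2, and BR6OX1 in none.

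None of 6 receptor paralogs and 7 other kinase and phosphatase genes had a peak of every replicate, against 18.8% of all protein-coding genes. No peak of any replicate was found at 3 of the 6 and 5 of the 7, against 51.9% of all protein-coding genes. Whether these small counts differ from the shares was not tested. Among the 6 receptor paralogs, BRL1 and SERK1 had peaks in 2 replicates, SERK2 in 1, and BRL2, BRL3 and SERK4 in none. Among the 7 other kinase and phosphatase genes, BSL1 had peaks in 2 replicates and SK23, a relative of BIN2, in 1. BSK1, CDG1, BSL2, BSL3 and SK22 had none. Of the 8 other transcription factors and partners, 5 (62.5%) had a peak of every replicate, against 18.8% of all protein-coding genes. They were BEH1, BEH2, BEH3 and BEH4, the homologs of BZR1 and BES1, and HBI1, a homolog of BEE2. BEH2 had fold enrichments of 5.29, 5.71 and 4.94 with summits within 35 bp. BEH3 had 4.95, 4.31 and 5.12 within 82 bp, and BEH4 had 4.75, 5.79 and 3.85 within 61 bp. BEH1 had 5.54, 4.57 and 3.11 and HBI1 4.94, 3.01 and 4.03, with wider spans of 262 and 331 bp. IBH1 and PRE1 had a peak in 1 replicate each and CES in none.

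**Figure D4:**
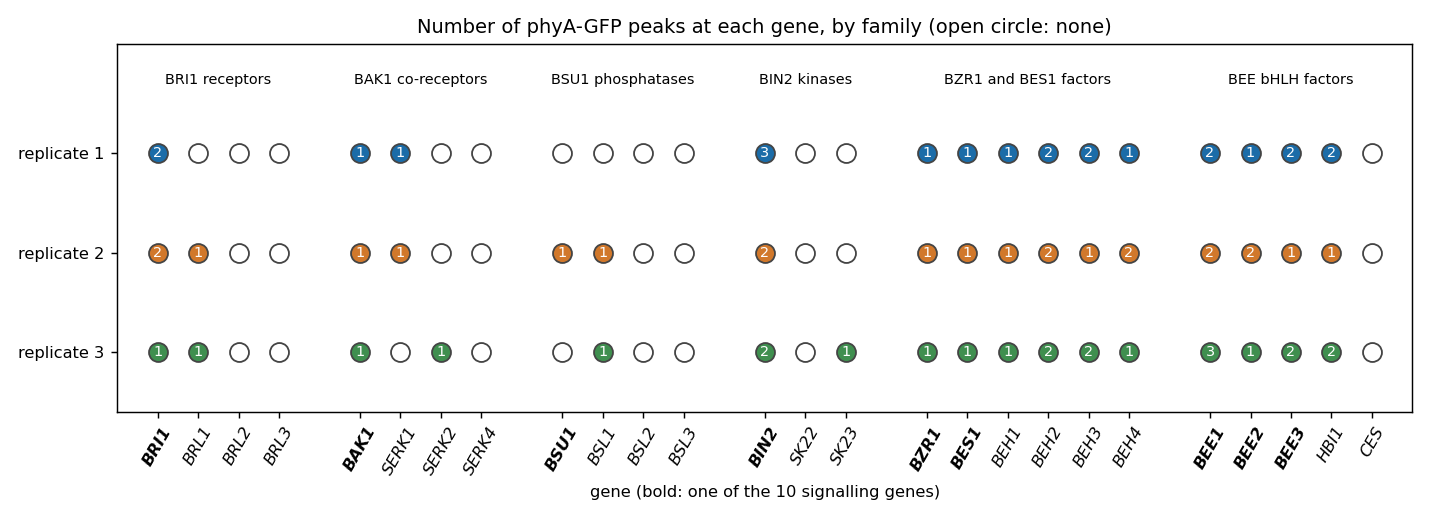
Each column is a gene and each line of circles a replicate, with the number of phyA-GFP peaks in the circle and open circles for none. Genes are grouped by family. All 6 genes of the BZR1 and BES1 family have a peak in every replicate, although the BZR1 summits lie nearest to AT1G75060, and 2 of the 6 do so with only peaks of fold enrichment 4 or more.

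Grouped by family, a peak of every replicate was found at 6 of 6 genes of the BZR1 and BES1 family and at 4 of 5 bHLH genes related to the BEE genes. The counts were 1 of 4 for BRI1 and its homologs, 1 of 4 for BAK1 and its SERK relatives, 1 of 3 for BIN2 and its relatives, and 0 of 4 for BSU1 and its relatives. The share over all protein-coding genes was 18.8%, and counts of 0 or 1 among 3 or 4 genes cannot be read as below it. With only peaks of fold enrichment 4 or more, the BZR1 and BES1 family had 2 of 6 (BEH2 and BEH3) and the bHLH genes 1 of 5 (BEE1). In that setting the BRI1, BAK1 and BIN2 families had 1 each and the BSU1 family 0, against 4.90% of all protein-coding genes. BZR1 was also lost with flanks of 500 bp and with the nearest gene only, which left 5 of 6. BRI1 was lost in both of these settings too, which left 0 of 4 in its family. The share over all protein-coding genes was 16.2% with flanks of 500 bp and 9.83% with the nearest gene only. At fold enrichment 4 or more BRI1 was kept through a replicate 3 peak that reached 6 bp into the window, with its summit nearest to WRKY13. This grouping was made after the values were seen. Whether the families differ was not tested. Members of a family share sequence, and whether reads were split between copies was not tested.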

How the data were processed

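Chromatin from 5 g of seedlings, fixed in 1% formaldehyde, was sonicated and immunoprecipitated, per the labels' protocols. Bowtie was the aligner and TAIR10 the build, per the submitters' processing notes. Peak caller, filters and use of the input were not given in the sources used here. Every deposited list has 9 unnamed columns, interpreted by their values and by the MACS 1.4 column order. Read counts of peaks, as deposited, are raw. The deposited score was read as minus 10 times log10 of a p-value and was not used for results. Fold enrichment was deposited as a linear ratio, and the deposited false discovery rate, a percent, reached 4.99%.

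Gene positions came from the NCBI table of TAIR10.1, and its gene ends may differ from those of TAIR10. Summits are the peak start plus the deposited offset. Where a replicate had several peaks at a gene, the most enriched was taken, or the longest as an alternative. For the summit span, 1 peak per replicate was taken so that the span was smallest. Calls were computed with Python 3.11.15 and pandas 2.3.3 over all protein-coding genes and tested on simulated peaks. With 1 condition no test between groups was made. All 10 signalling and all 33 other genes matched the table by locus. The genes, lists and rules were chosen with earlier results of these data known. The planned promoter motif search was not run, because no genome sequence was used here. Alternatives changed the flank, fold enrichment, overlap, gene assignment, summit distance and replicates.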

Additional observations from a re-analysis of the deposited data

How the results depend on the processing

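Counts depended most on peak strength, and the share over all protein-coding genes moved with them. With only peaks of fold enrichment 4 or more, 4 of the 10 genes had a peak of every replicate (BRI1, BAK1, BIN2 and BEE1) against 8 of 10, and the share over all genes was 4.90% against 18.8%. In that setting 3 had a summit of every replicate against 6 (all genes 3.60% against 14.3%). BRI1 was not among these 3, because its replicate 3 peak reached 6 bp into the window and had its summit outside it. Summits lay within 200 bp at 2 of 4 genes against 5 of 8 (all genes 63.5% against 59.0%). Of the other 33 pathway genes, 3 had a peak of every replicate against 10. Asking for 2 of 3 replicates gave summits within 200 bp at 8 of 9 genes (all genes 83.9%) and peaks at 16 of the 33 pathway genes (all genes 32.1%). A summit distance of 100 bp gave 3 of 8 genes (all genes 35.8%). Leaving out 1 replicate at a time gave 8 to 9 genes with peaks (all genes 21.4 to 26.8%) and 6 to 7 with summits (16.6 to 21.0%). It gave 6 to 7 with summits within 200 bp (71.0 to 74.3%) and 10 to 13 pathway genes. The median fold enrichment of the 8 genes, 4.63 as the mean of the replicates' medians, was then 4.35 to 4.94. Shared bases between replicates, the highest peak with its summit in the window, and the family counts by setting were added after seeing the data. The first of these left the counts at 8 of the 10 and 10 of the 33 genes (all genes 17.4%). The second gave a fold enrichment of 4.48 over the 6 or more genes per replicate with such a peak. The other alternatives kept the counts of the 10 genes and of the 33 within 1.5 times. No paired analysis was possible because the lists belong to 1 group. Depth outside peaks is unknown, so an absent peak is no evidence of absent binding.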
